A study of Homo sapiens with 12 samples.

Results

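Human chromosome 17 was described by its nucleolus-associated domains (NADs), the chromosomal DNA that purifies with nucleoli, in naive and primed pluripotent cells. The regions were taken by position alone, as every entry on chromosome 17 in either deposited region list. This gave 2853 regions of 91744 in all, 1829 of them naive and 1024 primed. The cells were H9, an established line of human embryonic stem cells and the only line in the study. They were grown without further treatment in RSeT medium for the naive state and in mTeSR medium for the primed state. The study has 12 libraries in 4 groups of 3, namely nucleolar DNA from naive cells, nucleolar DNA from primed cells, and whole-cell DNA from each. The 6 libraries of each state were turned by the authors into 1 list of start and end positions, with no score, so no value below has an error across cultures and no difference between the states could be tested. Region limits lie on a 10 kb grid, apart from the last base of the chromosome, and all positions are on hg38. The read depth of the libraries is not given in the sources used here, and the part of depth in any difference between the lists was not tested. A region list holds no expression values, so the cell state could not be checked against marker genes.

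The nucleolus is the compartment in which ribosomal RNA genes are transcribed and ribosomes are assembled. It forms around ribosomal DNA, which lies on the short arms of the acrocentric chromosomes and not on chromosome 17. Heterochromatin gathers at its surface, and NADs overlap in part with the domains found at the nuclear lamina. In many cell types such DNA is poor in genes and holds families of silent, tissue-specific genes, which makes a gene-dense chromosome a useful contrast. Chromosome 17 carries the keratin and HOXB clusters, a large group of chemokine genes and many genes that every cell uses.

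Promoters are shown first because a start site held by 1 list alone marks a place where the lists part. Of 1157 protein-coding genes on the chromosome, 824 matched a promoter in the RefSeq table (GRCh38.p14), which spans 250 bases before to 50 after the start site. Below are 3 start sites held by the naive list alone and then 3 held by the primed list alone, 1 from each of the longest such stretches with a matched start site. They are written 5′ to 3′ on the strand of the gene, with each CG dinucleotide in capitals.
ABCA6, naive only, chr17:69141846-69142145, minus strand: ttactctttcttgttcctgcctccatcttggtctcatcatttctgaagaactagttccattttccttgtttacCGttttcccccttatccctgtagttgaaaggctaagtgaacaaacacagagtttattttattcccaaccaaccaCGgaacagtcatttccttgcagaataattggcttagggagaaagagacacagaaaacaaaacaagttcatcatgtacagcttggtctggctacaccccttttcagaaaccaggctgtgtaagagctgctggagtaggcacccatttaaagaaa
ABCA10, naive only, chr17:69244799-69245098, minus strand: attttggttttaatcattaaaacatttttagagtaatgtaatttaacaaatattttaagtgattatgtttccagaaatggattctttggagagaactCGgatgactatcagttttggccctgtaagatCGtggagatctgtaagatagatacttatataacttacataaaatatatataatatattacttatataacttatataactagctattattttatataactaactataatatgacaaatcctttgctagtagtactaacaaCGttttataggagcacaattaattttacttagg
LRRC59, naive only, chr17:50397474-50397773, minus strand: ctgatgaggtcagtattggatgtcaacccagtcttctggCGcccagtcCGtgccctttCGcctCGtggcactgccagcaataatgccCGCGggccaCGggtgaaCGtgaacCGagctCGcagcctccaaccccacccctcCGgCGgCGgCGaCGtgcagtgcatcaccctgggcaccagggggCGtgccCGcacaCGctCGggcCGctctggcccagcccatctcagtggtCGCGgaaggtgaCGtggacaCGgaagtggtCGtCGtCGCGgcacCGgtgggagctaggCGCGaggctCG
TRPV3, primed only, chr17:3557763-3558062, minus strand: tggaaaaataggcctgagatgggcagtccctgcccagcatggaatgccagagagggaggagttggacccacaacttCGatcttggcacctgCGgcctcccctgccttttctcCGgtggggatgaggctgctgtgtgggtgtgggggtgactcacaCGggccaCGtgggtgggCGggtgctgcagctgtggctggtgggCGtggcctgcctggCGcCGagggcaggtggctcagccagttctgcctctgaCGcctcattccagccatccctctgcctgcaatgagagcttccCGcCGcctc
FLCN, primed only, chr17:17237119-17237418, minus strand: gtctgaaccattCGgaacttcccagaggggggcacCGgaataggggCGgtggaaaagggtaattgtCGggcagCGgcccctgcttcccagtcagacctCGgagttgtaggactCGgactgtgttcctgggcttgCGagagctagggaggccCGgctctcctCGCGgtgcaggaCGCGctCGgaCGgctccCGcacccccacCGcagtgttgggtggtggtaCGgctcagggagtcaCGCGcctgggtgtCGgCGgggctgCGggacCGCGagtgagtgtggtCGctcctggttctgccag
DPH1, primed only, chr17:2029903-2030202, plus strand: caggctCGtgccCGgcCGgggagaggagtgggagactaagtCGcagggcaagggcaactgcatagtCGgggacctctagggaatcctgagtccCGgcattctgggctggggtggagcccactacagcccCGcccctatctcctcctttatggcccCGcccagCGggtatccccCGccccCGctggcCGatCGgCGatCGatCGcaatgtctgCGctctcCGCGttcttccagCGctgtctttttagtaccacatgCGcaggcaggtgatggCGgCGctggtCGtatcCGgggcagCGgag
ABCA6 and ABCA10 encode transporters of the ABCA family, and their promoters hold 2 and 3 CG dinucleotides with 41.7% and 25% G and C bases. LRRC59, which encodes a protein of the endoplasmic reticulum, has a promoter of the CpG island kind with 32 CG dinucleotides and 68.3% G and C. Among the primed-only start sites, TRPV3 encodes a warmth-sensing ion channel of skin, FLCN encodes folliculin, a regulator of growth signalling at the lysosome, and DPH1 encodes an enzyme of diphthamide synthesis. Their promoters hold 12, 26 and 26 CG dinucleotides, with 65.0%, 67.0% and 66.0% G and C. The naive-only start sites therefore ranged from 2 to 32 CG dinucleotides, and that range contains all 3 primed-only values. Promoter composition was not compared further, because only 71.2% of the coding genes had a sequence.

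Chromosome 17 was covered far more by the primed list than by the naive one. Primed NADs took up 60.5 Mb, or 72.7% of its 83.3 Mb, and naive NADs 37.4 Mb, or 44.9%. Over the other 22 chromosomes analysed (1 to 22 and X without 17), the shares were 44.8% primed and 40.1% naive. Chromosome 17 was thus 27.9 points above them in the primed list and 4.80 points above in the naive list. It ranked 8 of 23 by primed share, 11 by naive share and 2 by coding genes per Mb, with 13.9 per Mb against 6.59 elsewhere. The other small, gene-rich chromosomes lay higher: primed NADs covered 80.9% of chromosome 16, 94.5% of chromosome 20 and 97.3% of chromosome 19, with naive shares of 47.3%, 51.6% and 51.6%.

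**Figure D1:**
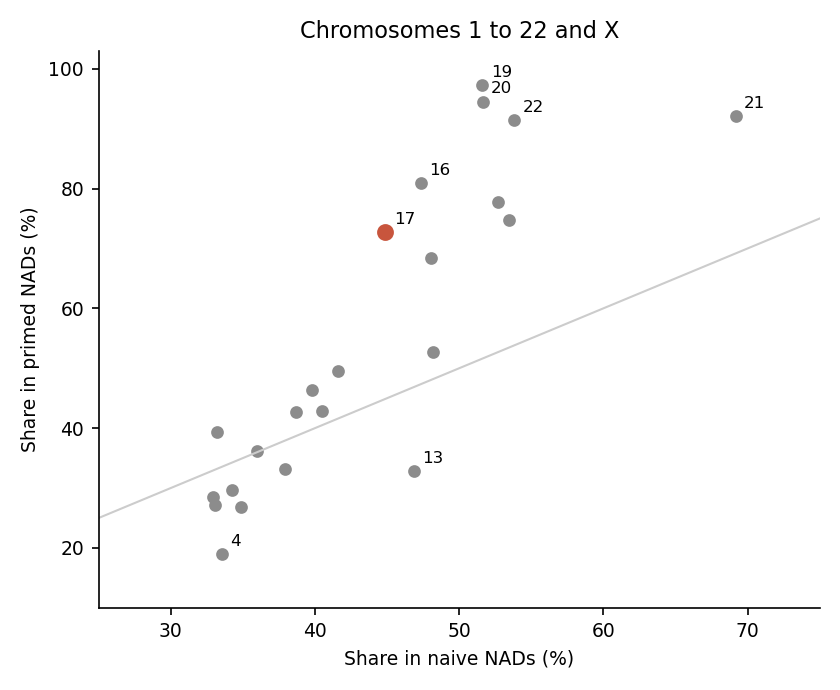
Share of each of 23 chromosomes in naive NADs (horizontal axis, percent of the analysed sequence) against its share in primed NADs (vertical axis, percent), 1 point per chromosome, with the line of equal shares. Chromosome 17 lies above the line at 44.9% naive and 72.7% primed, below chromosomes 16, 19 and 20 on the primed axis.

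Most naive NAD sequence on chromosome 17 was also in the primed list. Both lists held 29.3 Mb, or 35.2% of the chromosome, which is 78.3% of the naive and 48.4% of the primed sequence. The product of both shares is 32.6%, so the shared sequence was 1.08 times that figure. The primed list alone held 31.3 Mb (37.5%), the naive list alone 8.10 Mb (9.73%), and 14.6 Mb (17.6%) lay in neither. Counted by region, 1481 naive regions (81.0%) touched a primed one and 1242 (67.9%) lay wholly inside one. Of the primed regions, 661 (64.6%) touched a naive one. Only 269 matches were left when each partner had to cover at least 50% of the other, 14.7% of the naive and 26.3% of the primed regions. On chromosomes 16, 19 and 20, 88.4%, 99.2% and 97.4% of the naive regions touched a primed one. By the 50% rule, 12.3%, 1.404% and 3.43% of their naive and 23.96%, 19.1% and 20% of their primed regions matched. Naive regions of chromosome 17 reached at most 260 kb, so none could cover 50% of a primed region of 1 Mb. The 50% counts depend on region length, and its part was not tested.

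The primed regions were long and the naive ones short. Naive regions had a mean length of 20.4 kb and a maximum of 260 kb, and 966 of them (52.8%) were a single 10 kb bin. Primed regions averaged 59.1 kb with a maximum of 4180 kb, and 397 (38.8%) were a single bin. The 107 primed regions that reached 100 kb made up 61.3% of the covered sequence, and the 6 that reached 1 Mb made up 25.4%. In the naive list 11 regions reached 100 kb and held 4.55%. The longest classes of either list were covered most by the other list. The naive list covered 40.6% of single-bin primed regions, 38.9% of the next class of up to 50 kb, and 58.2% of those of at least 1 Mb. The primed list covered 71.9% of single-bin naive regions and 93.5% of those of 100 kb or more. On each chromosome analysed, naive cover was higher inside primed regions of at least 1 Mb than outside them. The shares were 58.2% inside and 41.9% outside on chromosome 17, and 60.1% and 45.0% on chromosome 16. Gaps were short throughout, with a median of 20.0 kb between naive and 10.0 kb between primed regions and a longest gap of 230.0 kb in each list.

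**Figure D2:**
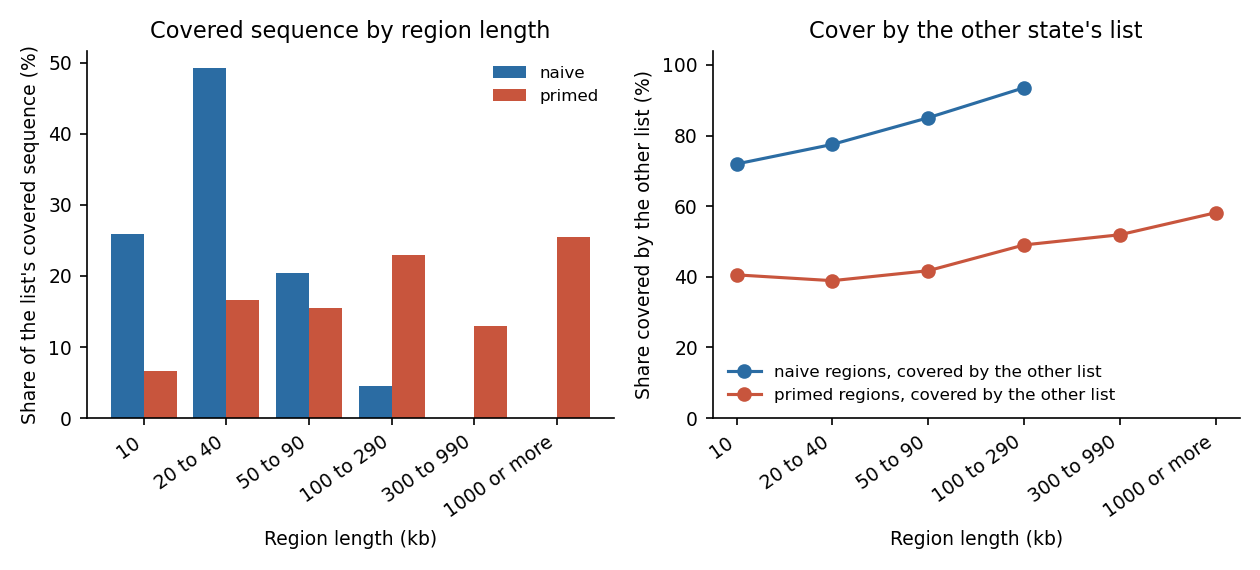
Length classes of the chromosome 17 regions (horizontal axis, kb). Shown are the share of each list's own covered sequence in each class (percent) and the share of that class covered by the other list (percent). Naive regions that reach 100 kb hold 4.55% of the naive sequence, while the 6 primed regions that reach 1 Mb make up 25.4% of the primed sequence and are 58.2% covered by the naive list.

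The longest primed region, chr17:9860001-14040000, spanned 4.18 Mb with 22 coding genes, and naive regions covered 60.5% of it. It holds DNAH9, a dynein heavy chain of motile cilia, SHISA6, GAS7 and ARHGAP44. The next, chr17:32330001-36340000, spanned 4.01 Mb with 57 coding genes, among them ASIC2, an acid-sensing ion channel, MYO1D, an unconventional myosin, and AP2B1, a subunit of the endocytic adaptor. Naive regions covered 57.6% of that one. The third, chr17:19260001-21800000, holds SPECC1, EPN2, ULK2 and AKAP10. The fourth, chr17:2500001-4160000, holds 33 coding genes in 1.66 Mb. The fifth, chr17:26930001-28520000, holds KSR1, NLK, NOS2 and FOXN1. Coding genes were sparser inside the 6 primed regions of at least 1 Mb, at 10.4 per Mb against 14.7 outside. Of these 6 regions, 4 lay on the short-arm side, 1 on the long-arm side and 1 across the boundary described next.

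The primed share varied with position along the chromosome more than the naive share did. The longest stretch without an annotated gene, chr17:22710001-26980000, spans 4.27 Mb around the centromere and was used to divide the chromosome. Before it, on the short-arm side, primed NADs covered 95.7% and naive NADs 51.6% of 22.7 Mb. After it, on the long-arm side, they covered 65.3% and 43.1% of 56.3 Mb. Coding genes were about equally dense on both sides, at 14.6 per Mb before and 14.7 after. Sequence held by the naive list alone made up 1.19% of the short-arm side and 13.5% of the long-arm side. Primed regions averaged 272 kb before and 42.2 kb after, and naive regions 23.03 kb and 19.5 kb. Within the gene-free stretch itself the shares were 48.0% primed and 32.8% naive.

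In steps of 10 Mb from the short-arm end, the primed share was 93.4%, 97.4%, 76.5%, 93.7%, 74.0%, 61.5%, 33.9% and 47.8%, and 83.1% in the last 3.26 Mb. The naive share over the same steps was 43.8%, 54.3%, 49.7%, 51.1%, 43.3%, 44.1%, 38.7%, 36.7% and 36.8%. The primed share was therefore lowest in chr17:60000001-70000000 and high again at the long-arm end, while the naive share stayed between 36.7% and 54.3%. The mean length of the primed regions was 381 kb in the step chr17:10000001-20000000 and 17.3 kb in chr17:60000001-70000000. In the latter step it was below the naive mean of 18.4 kb. At the ends of the chromosome, primed NADs covered 83.5% of the first and 82.0% of the last 2 Mb, against 41.0% and 37.5% for naive NADs.

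**Figure D3:**
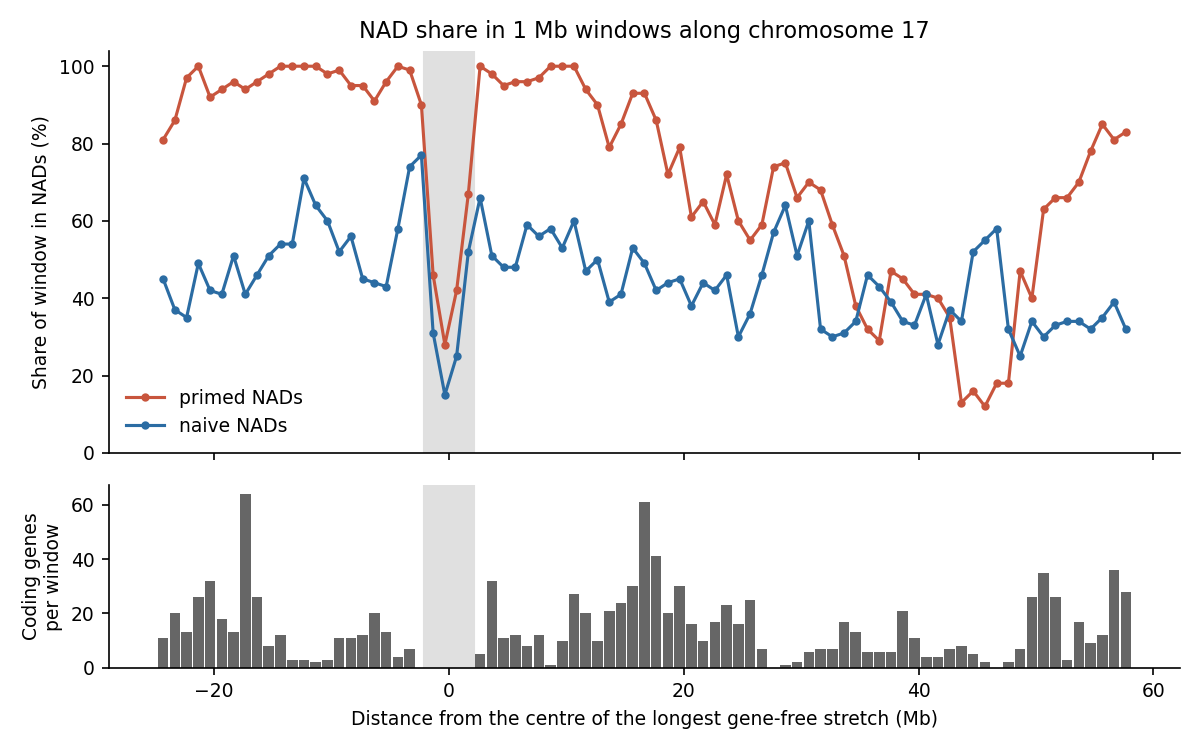
Naive and primed shares (percent of each window) and coding genes per window along chromosome 17 in windows of 1 Mb, with the gene-free stretch shaded. The horizontal axis is the distance in Mb from the centre of that stretch, with the short-arm side at negative values. Primed shares run from 12% to 100% and naive shares from 15% to 77.0%, and naive exceeds primed in 8 windows, all on the long arm.

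Among 83 windows of 1 Mb, the primed share ran from 12% to 100% with a median of 79.0%, and the naive share from 15% to 77.0% with a median of 44.0%. The standard deviation over windows was 25.9 points for primed and 11.9 points for naive. Primed NADs filled 10 windows completely, covered at least 95% of 25, and covered under 50% of 19. The highest naive shares were 77.0% at chr17:22000001-23000000 and 74.0% at chr17:21000001-22000000, where the longest naive region, chr17:21480001-21740000, holds the potassium channel gene KCNJ18. All 5 of the longest naive regions lay wholly inside primed ones. The lowest naive share, 15%, was in the gene-free stretch at chr17:24000001-25000000. The next lowest, 25%, was shared by chr17:25000001-26000000 in the same stretch and by chr17:73000001-74000000, a long-arm window with 7 coding genes. A 200 kb stretch in the lowest window, chr17:24780001-24980000, was the longest in neither list. Apart from chr17:73000001-74000000, the naive extremes named here lie in or near the gene-free stretch. How reads were placed around the centromere is not given in the sources used here, and its part in these extremes was not tested.

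The naive share was above the primed share in 8 windows, all in the 13 Mb between chr17:60000001 and chr17:73000000. The largest gap was at chr17:70000001-71000000, which holds the potassium channel genes KCNJ16 and KCNJ2, with 55.0% naive and 12% primed. The next window had 58.0% and 18.0% and no coding gene, and the one before had 52.0% and 16% and holds MAP2K6, a MAP kinase kinase, with 4 ABCA genes. The window at chr17:72000001-73000000, with SOX9 and SLC39A11, had 32.0% and 18.0%. These 8 windows held 0 to 8 coding genes each. At the other extreme, chr17:2000001-3000000 had 35% naive and 97.0% primed, a gap of 62.0 points with 13 coding genes.

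The stretch from the end of KCNJ2 to the start of SOX9 is a gene desert of 1941 kb. SOX9 encodes a transcription factor of cartilage and testis development, and the desert before it is known for its distant enhancers. Naive NADs covered 56.7% of the desert in 42 regions of up to 120 kb, and primed NADs 14.9% in 25 regions of up to 30 kb. SOX9 itself lay in neither list, and KCNJ2 had 4.46% of its body in the naive and 0% in the primed list. This stretch and its flanking genes were chosen after their values were seen. The naive share stayed above the primed one with short regions left out and with gaps of up to 20 or 50 kb merged, by 47.4 to 64.4 points. The longest naive-only stretches of the chromosome were 70.0 kb at chr17:61060001-61130000 in BCAS3, then 60.0 kb each at chr17:64540001-64600000 in SMURF2, at chr17:69110001-69170000 with ABCA10 and ABCA6, and at chr17:70550001-70610000 and chr17:70870001-70930000 in the desert. BCAS3 encodes a cytoskeletal protein of cell migration and SMURF2 a ubiquitin ligase of TGF-beta signalling.

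The longest primed-only stretches exceeded these, and 4 of the 6 that reached 90 kb lay on the short-arm side. The longest, 120 kb at chr17:3530001-3650000, holds TRPV3, TRPV1, SHPK and CTNS, which encode ion channels of skin and of pain fibres, a sugar kinase and the lysosomal cystine transporter. The others were chr17:5540001-5650000 with part of NLRP1, an inflammasome sensor, chr17:17130001-17240000 with MPRIP, FLCN and PLD6, chr17:21320001-21410000 with the potassium channel gene KCNJ12, and, on the long-arm side, chr17:29070001-29160000 in MYO18A and chr17:30520001-30610000 with an end of GOSR1, the last 3 of equal length.

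Gene density went with a larger primed excess over naive. Over the 83 windows, the naive minus primed share had a Pearson's r of -0.43 and a Spearman's rho of -0.51 with coding genes per Mb, and over 2827 windows of the other chromosomes -0.43 and -0.45. The naive share had r of -0.18 and rho of -0.24, and the primed share r of 0.29 and rho of 0.21. The naive and primed shares had r of 0.50 with each other. These coefficients describe neighbouring windows that share their libraries, so no p is given. Windows with at most 7 coding genes (32 windows) had mean shares of 48.0% ± 15.9 (SD over windows) naive and 60.7% ± 29.5 primed. Those with 8 to 16 genes (23 windows) had 44.6% ± 8.99 and 81.4% ± 23.9, and those with 17 or more (28 windows) had 41.5% ± 7.23 and 79.2% ± 17.3. The naive means differed by less than the SD of each class. The primed mean was lowest in the gene-poor class. Its gap to each other class was below the SDs of 29.5 and 23.9 in the gene-poor and middle classes. It was above the SD of 17.3 in the gene-rich class.

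Windows of chromosome 17 with few or middling numbers of genes had higher primed means than those elsewhere. On the other 22 chromosomes, windows of the same 3 classes had primed means of 38.3% ± 37.2, 52.2% ± 33.6 and 77.5% ± 22.6, and naive means of 40.9%, 37.1% and 40.8%. Chromosome 17 was thus 22.4 points above them in the gene-poor class, 29.2 points above in the middle class and 1.71 points above in the gene-rich class. Each of these gaps is smaller than the SD over windows of either set, apart from the middle class, where it exceeds the SD of 23.9 on chromosome 17 and not that of 33.6 elsewhere. This was not particular to chromosome 17, as chromosomes 16, 19 and 20 had higher primed means than it in the gene-poor and middle classes. On chromosome 16 the primed means hardly varied with density, at 80.6%, 82.7% and 80.3%. The gene-poor and middle means were 93.1% and 100% on chromosome 19 (7 windows each), and 94.3% and 95.4% on chromosome 20. Where single windows are taken, the densest on chromosome 17, chr17:7000001-8000000 with 64 coding genes, had 41.0% naive and 94.0% primed.

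**Figure D4:**
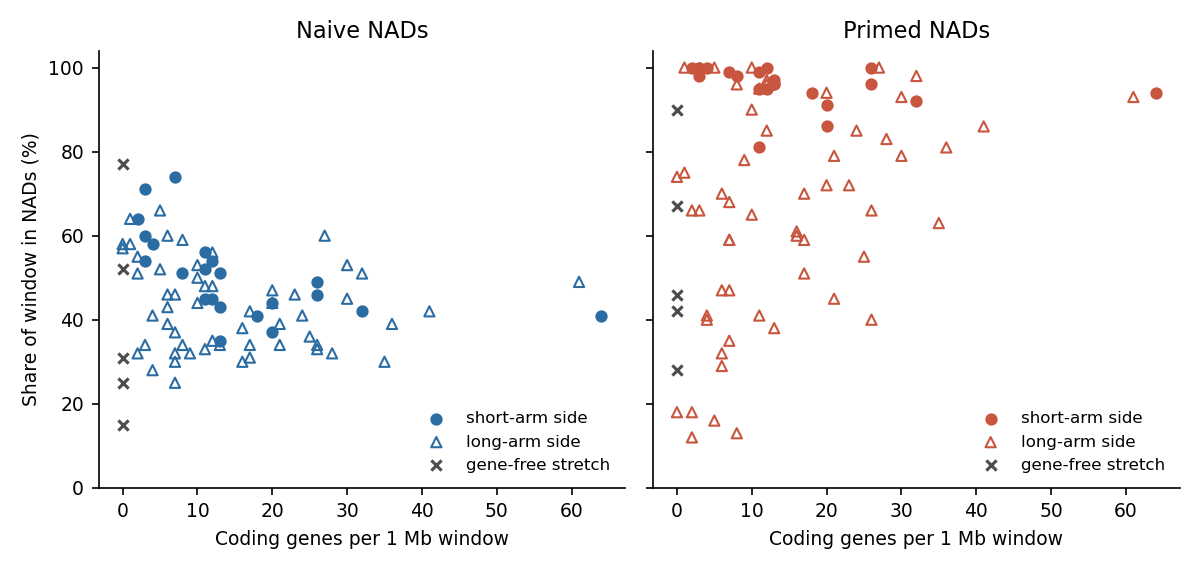
Naive and primed share of each 1 Mb window of chromosome 17 (vertical axes, percent) against its coding genes (horizontal axis, genes per Mb), with windows before, in and after the gene-free stretch marked apart. Windows on the short-arm side lie at 81.0% primed or more at any density, while gene-poor windows on the long-arm side range from 12% to 100%.

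Taken singly, the naive and primed shares went with density differently on the 2 sides of the centromere. The naive minus primed share had a similar r on both, at -0.49 on the short-arm side and -0.48 on the long-arm side. Its rho differed more, at -0.76 on the short-arm side and -0.53 on the long-arm side. On the short-arm side (22 windows) both shares were lower where genes were denser, with r of -0.55 and rho of -0.80 for naive and r of -0.30 and rho of -0.59 for primed. On the long-arm side (56 windows) r was -0.15 and rho -0.21 for naive, and r was 0.39 and rho 0.36 for primed. Primed shares of short-arm windows had little room to vary, at 81% or more in each. Gene-poor windows of the short-arm side had 99.5% ± 0.837 primed (6 windows, 98.0% to 100%) and 63.5% ± 7.74 naive. Gene-poor windows of the long-arm side had 51.0% ± 25.9 primed (21 windows, 12% to 100%) and 45.4% ± 12.6 naive. In the gene-rich class the primed means were 93.3% ± 4.35 in 7 windows and 74.5% ± 17.5 in 21 windows. At the scale of 10 kb bins, those touching a coding gene were 43.2% naive and 75.01% primed, those touching other genes alone 48.5% and 75%, and those touching no gene 46.9% and 66.1%.

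Nearly all coding genes of chromosome 17 had some part in a primed NAD. Of 1157, 1098 (94.9%) overlapped the primed list and 869 (75.1%) the naive list by any amount, against 81.8% and 76.8% of coding genes over all 23 chromosomes. Both lists touched 838 genes (72.4%, with 65.2% over all chromosomes) and the primed list alone 260 (22.5%, with 16.6%). The naive list alone touched 31 (2.68%, with 11.6%), and 28 lay in neither (2.42%, with 6.57%). By any overlap, the primed count was above the background and the naive count close to it. All 31 naive-only genes lay on the long-arm side, the first of them starting at position 42780610, and 14 of them were covered over their whole body. Genes here were short, with a median of 15.9 kb against 25.3 kb elsewhere. With at least 50% of the body required, the primed list held 945 genes (81.7%, with 61.2% over all chromosomes). The naive list held 448 by that rule (38.7%, with 34.7%), somewhat above the background. By start site, among the 824 genes with one, the primed list held 702 (85.2%, with 65.9% over all chromosomes) and the naive list 385 (46.7%, with 41.7%).

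Most long genes were covered more by the primed list. There were 35 coding genes of at least 200 kb, and both lists touched each. At that length a touch was nearly certain, as no gap in either list exceeded 230 kb. Gaps of 100 kb or more numbered only 26 in the naive and 22 in the primed list. Of the 35 genes, 12 lay wholly in primed NADs and none wholly in naive ones, with median shares of 80.9% primed and 45.4% naive. Equally long genes of other chromosomes are not given beside them. ASIC2, the longest at 1144 kb, was 56.6% naive and 100% primed. DNAH9 had 56.6% and 100%, and NF1, which encodes the RAS regulator neurofibromin, had 48.7% and 100%. RBFOX3, a splicing regulator of mature neurons, had 34.8% and 79.1%. The naive share was above the primed one in 4 long genes, all beyond position 60000001. BCAS3 had 43.4% naive and 21.7% primed, SLC39A11, a zinc transporter, 31.3% and 11.2%, USP32, a ubiquitin protease, 46.0% and 29.5%, and TANC2, a synaptic scaffold protein, 57.2% and 45.8%.

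Gene families were then described in 25 lists, 23 of coding genes. A member was counted when any part of its body lay in a region, and shares are percentages of the gene body. The primed list touched more members in 17 lists, both touched the same number in 5, and the naive list touched more in 3. The 3 were HOXB, the ABCA transporters and the DNA repair genes. These counts stand beside backgrounds of 94.9% primed and 75.1% naive for all coding genes of the chromosome, so a list wholly in primed NADs is close to the rule here. Any overlap depends on gene length, and the backgrounds are of genes with a median of 15.9 kb. List medians differed widely, at 0.94 kb for keratin-associated proteins, 2.36 kb for CC chemokines and 88.1 kb for ABCA transporters. The backgrounds are not matched to them, so a naive count under 75.1% in a list of short genes is not read as low.

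**Figure D5:**
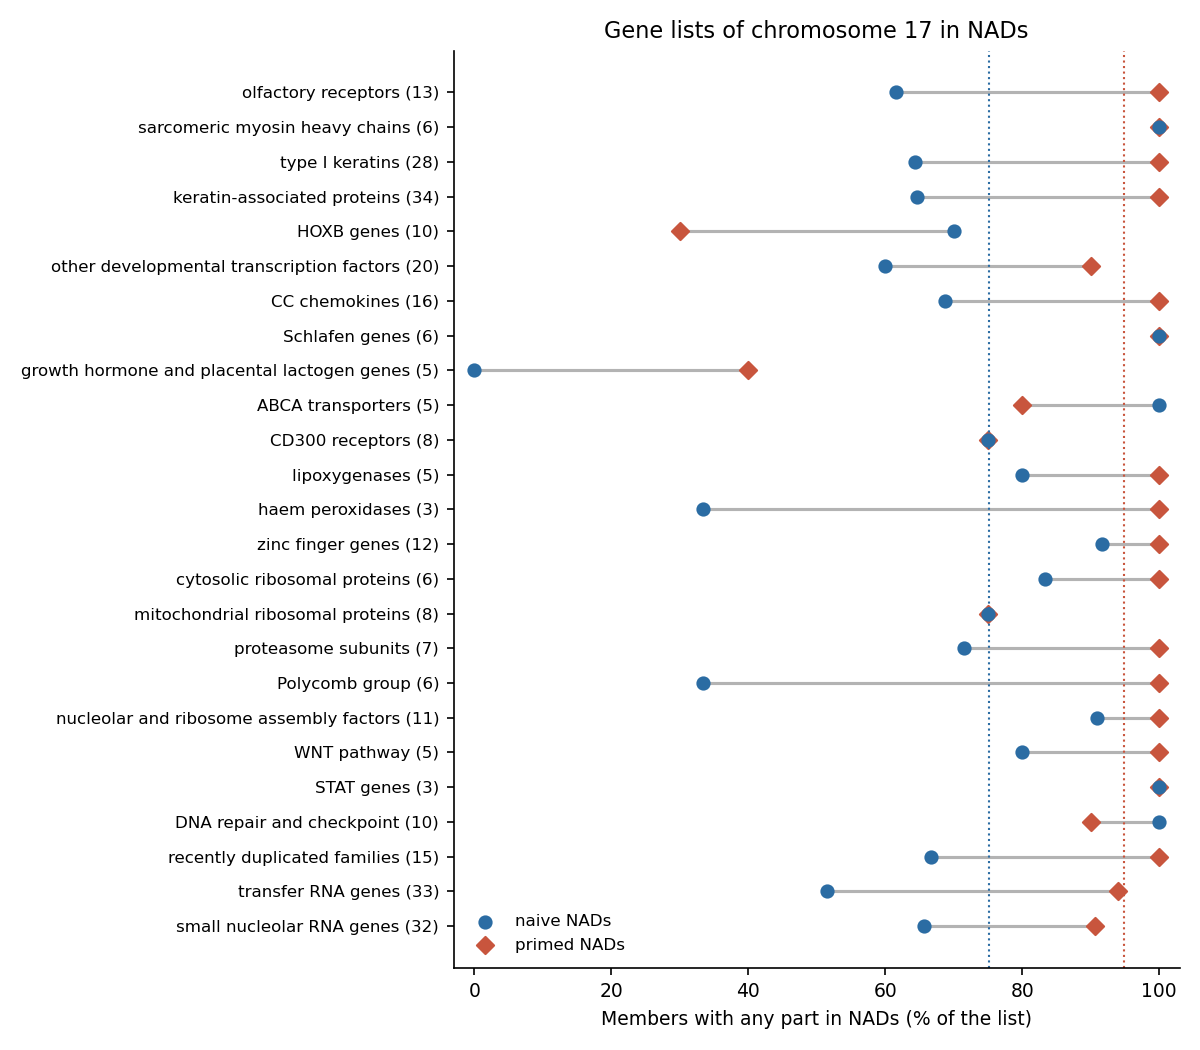
Percent of the members of each gene list on chromosome 17 with any overlap of naive or primed NADs (horizontal axis, percent of members), with dotted lines at the shares of all coding genes, 75.1% naive and 94.9% primed. The lines are not matched to the lists in gene length. HOXB has 7 of 10 members in naive and 3 of 10 in primed NADs, and most lists have more members in primed NADs.

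The short arm holds families of smell, skin and muscle genes. All 13 olfactory receptors, which detect odorants in the nose, were in primed and 8 in naive NADs. OR1D5, OR3A1 and OR3A3 lay wholly in primed and not at all in naive NADs. The remaining primed-only members, OR4D1 and OR4D2, lie on the long arm and had 85.6% and 27.0% of their body in primed NADs. The 6 sarcomeric myosin heavy chains, motors of skeletal muscle, sit inside the longest primed region and were all wholly primed. Their naive share ran from 58.4% in MYH13 to 100% in MYH2 and MYH4. All 5 lipoxygenases, which oxidise fatty acids in skin and blood cells, were wholly primed. Their naive shares were 73.1% in ALOX12, 43.4% in ALOXE3, 15.6% in ALOX15, 9.35% in ALOX15B and 0% in ALOX12B.

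Immune and keratin clusters of the long arm were also within primed NADs. All 16 CC chemokines, secreted attractants of leukocytes, were touched by the primed list and 11 by the naive list, and CCL2, CCL7, CCL14, CCL23 and CCL4 were primed only. All 6 Schlafen genes were wholly primed, with naive shares of 31.9% in SLFN12L, 32.7% in SLFN5 and 100% in SLFN11, SLFN12, SLFN13 and SLFN14. The 28 type I keratins, filament proteins of epithelia, and the 34 keratin-associated proteins of hair were all in primed NADs. Of these, 18 keratins and 22 keratin-associated proteins were also in naive NADs. KRT12, KRT14, KRT15 and KRT17 were wholly primed and not naive. Primed NADs covered 95.9% of the keratin stretch, chr17:40654665-41624575, in 5 regions of up to 560 kb, and naive NADs 60.3%.

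The HOXB cluster differed in pattern from the keratins. HOX genes encode transcription factors that set position along the body axis. The naive list touched 7 of 10 members and the primed list 3. HOXB4, HOXB5, HOXB9 and HOXB13 lay wholly in naive NADs, and HOXB6 for 46.0% of its body, with 0% primed in each. HOXB2 was wholly primed and 0% naive. HOXB1 had 59.3% naive and 100% primed, and HOXB3 24.8% and 26.9%. HOXB7 and HOXB8 were in neither list. Across chr17:48528526-48728750 the naive list had 7 regions of 10 to 20 kb and the primed list 4, 1 of them a region of 200 kb that ends within the cluster. By covered sequence the order was the other way, with 40.1% naive and 55.7% primed. The gene counts rest on single bins: with regions under 20 kb left out, 1 member was in naive and 3 in primed NADs.

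Of the microRNA genes within the HOXB cluster, 2 are shown here with the seed (bases 2 to 8), which guides target pairing, in capitals. They were chosen after their values were seen.
hsa-miR-10a-5p (MIR10A), chr17:48579904-48579926, minus strand: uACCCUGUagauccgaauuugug
hsa-miR-196a-5p (MIR196A1), chr17:48632532-48632553, minus strand: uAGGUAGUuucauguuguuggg
The sequences are from RefSeq on GRCh38.p14, and their seeds differ. MIR10A lay in the same naive-only bin as HOXB4, and MIR196A1 lay in both lists.

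Other developmental transcription factors were more often in the primed list, with 18 of 20 against 12 of 20. HIC1, a repressor, MEOX1 of the somites, DLX3 of skin and teeth, and TBX2 of limb and heart were each wholly primed and 0% naive. SOX9 and BHLHA9 were in neither list. In the WNT list, DVL2, which relays the signal from the receptor, was wholly primed and 0% naive. The receptor FZD2 had 33.4% naive and 66.6% primed, the ligands WNT3 and WNT9B 33.3% and 53.4%, and 31.4% and 62.7%, and the inhibitor AXIN2 30.2% and 65.4%. The 3 STAT genes, whose products carry cytokine signals to the nucleus, were in both lists. STAT3, whose product acts in pluripotent cells downstream of LIF, had 35.5% naive and 73.4% primed. STAT5A had 48.7% and 100%, and STAT5B 23.3% and 100%.

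The ABCA transporters, lipid carriers in 460 kb at chr17:68867289-69327133, were covered mainly by the naive list. Naive shares were 91.4% in ABCA5, 82.1% in ABCA6, 74.2% in ABCA8, 48.4% in ABCA10 and 47.9% in ABCA9. Primed shares of the same genes were 12.1%, 15.8%, 11.4%, 0% and 9.57%. The stretch was 65.2% naive in 10 regions and 8.70% primed in 4 regions of a single bin each, so the 4 members with a primed overlap lost it with regions under 20 kb left out. These genes include ABCA6 and ABCA10, whose promoters are shown above. The growth hormone and placental lactogen genes, a placental and pituitary cluster at chr17:63872012-63918839, were outside naive NADs altogether. GH1 was 100% and CSHL1 76.2% primed, and CSH1, CSH2 and GH2 were in neither list. Of 8 CD300 receptor genes, each list touched 6. CD300C (46.7%) and CD300E (27.0%) were naive only, and CD300LG (77.9%) and CD300LD (83.3%) primed only. Among the haem peroxidases, MPO of neutrophils had 1.32% primed and 0% naive, EPX 41.6% and 0%, and LPO 61.9% and 4.73%.

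Polycomb genes, which encode repressors of developmental genes through histone H3 and H2A marks, were covered more by the primed list in each member given here. SUZ12, a core subunit of the complex PRC2 named in the study's title, had 37.5% naive and 100% primed. EZH1, a catalytic subunit of PRC2, had 0% and 77.7%. PCGF2, a PRC1 subunit, had 38.4% and 100%, and the PRC1 readers CBX2 and CBX8 each had 0% and 100%. A position in a NAD is a property of the gene's DNA here and says nothing of its expression.

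Genes for the nucleolus and for ribosomes lay in NADs like most others on the chromosome. The primed list touched all 11 nucleolar and ribosome assembly factors and the naive list 10. UBTF, the ribosomal DNA transcription factor, had 8.02% naive and 100% primed, TSR1 45.9% and 100%, and the helicase gene DHX33 32.0% and 100%. MYBBP1A, which encodes a repressor of ribosomal DNA transcription, was primed only with 39.3%. The 6 cytosolic ribosomal protein genes were all in primed NADs and 5 in naive ones, and RPL19 was primed only. Mitochondrial ribosomal proteins were in each list in 6 of 8 cases. MRPS23 was 99.7% naive and 0.288% primed, MRPL58 85.3% and 0%, and MRPS7 0% and 100%. Of 7 proteasome subunits, 7 were primed and 5 naive, and PSMB3 and PSMD3 were primed only. The primed list touched all 12 zinc finger genes and the naive list 11, leaving ZNF232 primed only.

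The DNA repair list had 10 of 10 members in naive and 9 in primed NADs. EME1, a subunit of a structure-specific nuclease, was wholly naive and 0% primed, and shares its naive-only stretch with the LRRC59 start site shown above. TOP3A, a topoisomerase, had 19.7% naive and 100% primed, the ligase gene LIG3 32.9% and 100%, and RAD51D 35.7% and 100%. With regions under 20 kb left out, 7 members were in naive and 8 in primed NADs. Recently duplicated families, mainly TBC1D3 copies, were in primed NADs in 15 of 15 cases and in naive NADs in 10. Reads from near-identical copies cannot be placed with certainty, so these counts are uncertain.

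Small RNA genes of chromosome 17 were also more often in the primed list. Of 33 tRNA genes, the primed list held 31 (93.9%) and the naive list 17 (51.5%), against 78.8% and 55.7% over all chromosomes. The cluster of 18 tRNA genes at chr17:8119155-8227064 was wholly touched by the primed list, and 14 of its genes by the naive list. Small nucleolar RNAs act mostly in the modification or processing of ribosomal RNA. Of 32 such genes, the primed list held 29 (90.6%) and the naive list 21 (65.6%), with 71.7% and 50.9% over all chromosomes. Of 110 microRNA genes, the primed list held 88 (80%) and the naive list 39 (35.5%), with 61.9% and 38% over all chromosomes. Many of these genes lie inside longer host genes and share their bins.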

How the data were processed

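Nucleolar and whole-cell DNA were sequenced from 3 naive and 3 primed samples each. Per the submitters' processing notes, BWA, SAMtools 1.10 and SICER were used on hg38, with settings not given in the sources used here. The authors deposited 1 list of regions per state, each with chromosome, start and end and no score. Neither the depth nor the way in which replicates were combined is given there, so no value has a replicate error and no test was made.

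Regions were counted in 10 kb bins and 1 Mb windows with Python 3.11.15, numpy 2.4.6, pandas 2.3.3 and scipy 1.17.1, and figures were drawn with matplotlib 3.10.9. On other chromosomes, stretches of at least 500 kb with no region and no gene were taken out of the denominator, and chromosome 17 had none. Genes, start sites and sequences are from RefSeq on GRCh38.p14, and 679 genes on other scaffolds were left out. The bin counting was tested on simulated lists. The chromosome, its gene lists and the compared chromosomes were chosen with earlier results of these data known. In lists of up to 6 members all could be named, and in longer lists the 4 with the largest difference between states and, where there were 5 or fewer, members in NADs of 1 state. Named as well were the 5 longest regions and stretches, extreme windows and coding genes of at least 200 kb. Other genes named, such as BHLHA9, HOXB1, HOXB3, HOXB7 and HOXB8, were chosen after their values were seen. A member of 1 gene list is not reported here. Sides were split at the longest gene-free stretch. Alternatives were shortest length, merged gaps, the overlap rule and window size.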

Additional observations from a re-analysis of the deposited data

How the results depend on the processing

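With regions under 20 kb left out, then gaps of up to 20 kb merged, then gaps of up to 50 kb merged, the naive share of chromosome 17 was 33.3%, 64.2% and 85.5%, against 44.9% as deposited. The primed share was 67.9%, 84.2% and 92.0%, against 72.7%. The share in both was 25.7%, 56.2% and 79.9%. The naive minus primed share was -34.7, -20.0 and -6.52 points, against -27.8, so its sign held. With 50% of both regions required to overlap, 14.7% of naive and 26.3% of primed regions matched. Coding genes in naive NADs were 448 with at least 50% of the body and 385 by start site, and those in primed NADs 702 by start site. Pearson's r of the naive and of the primed share with gene density moved by less than 0.1 with 500 kb and 2 Mb windows and without short regions, and the other coefficients were not recomputed. The number of windows with more naive than primed stayed at 8, sharing 7, 8 and 7 with the deposited lists. Of 46 list counts, 10 moved by over 1.5 times without short regions and 5 with 50 kb merging. The order of naive and primed counts was reversed only for HOXB and DNA repair, both without short regions. With 50 kb merging, each of these had 10 of 10 members in both lists, so their naive excess was lost. Some lists with a primed excess became ties as well, such as type I keratins with 28 in each. The share of the HOXB stretch was equal in both lists with 20 kb merging. Alternatives for the 4 named stretches, the sides and the windows were chosen after seeing the data.

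No paired analysis was possible because each state has 1 list made from all its libraries, and no result comes from a test. Depth and calling settings can change region number and length, and their part was not tested.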
